A study of Mus musculus with 10 samples.

Results

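The genes described are 10 members of the Notch pathway in NMC cells, a normal mouse cholangiocyte line, out of 18407 genes in the deposited count table. They comprise 3 receptors (Notch1, Notch2, Notch3), 2 ligands (Jag1, Jag2), 2 target genes (Hes1, Hey1), 2 Neuralized genes (Neurl1a, Neurl1b) and the coactivator Maml1. They were picked by gene symbol, with the laminin against collagen differences in these same libraries already known, so their differences between the matrices are given as a description and support nothing. All 10 passed the filter on low counts, at 25 to 2116 counts per library. Cholangiocytes are the epithelial cells of bile ducts. The labels name no mutation or treatment other than the matrix. Cells in both groups grew as double spheroids, a 3D culture, for 6 days, and their mRNA was then sequenced. The 5 laminin-rich libraries came from a matrix of laminin and collagen I at 3:1 by volume, and the 5 collagen I libraries from collagen I at 1 mg/mL. Both groups come from a single cell line, and the laminin-rich matrix holds collagen I as well.

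Notch signalling runs between touching cells. A ligand of the Jagged or Delta-like family on one side pulls on a Notch receptor on the other, the receptor is cut by ADAM10 and then by gamma-secretase, and the freed intracellular part enters the nucleus, where it binds RBPJ and a Mastermind coactivator and switches on repressors of the Hes and Hey families. Neuralized proteins are RING-type ubiquitin ligases, which in Drosophila act on the ligand in the sending cell and drive its endocytosis. In the liver, Notch signalling is known for its part in bile duct formation, and mutations of human JAG1 or NOTCH2 cause Alagille syndrome, in which bile ducts are sparse.

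Any part of promoter sequence in the differences between the matrices was not tested. Promoter sequences are shown for the 4 members whose laminin-rich and collagen I libraries did not overlap, as given below. They are RefSeq sequences on GRCm38.p6, read 5′ to 3′ on the gene's strand from the upstream side. Bases that a GENCODE transcript of the gene covers were left off. Capitals mark matches to CACGNG on either strand, an E-box-like site that Hes and Hey repressors can bind.
Neurl1b, chr17:26414609-26414828, plus strand: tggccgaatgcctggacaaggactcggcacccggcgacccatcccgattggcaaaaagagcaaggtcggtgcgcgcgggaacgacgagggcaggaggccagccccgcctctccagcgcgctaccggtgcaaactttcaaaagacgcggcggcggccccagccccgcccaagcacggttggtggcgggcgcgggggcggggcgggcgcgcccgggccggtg
Neurl1a, chr19:47178570-47178819, plus strand: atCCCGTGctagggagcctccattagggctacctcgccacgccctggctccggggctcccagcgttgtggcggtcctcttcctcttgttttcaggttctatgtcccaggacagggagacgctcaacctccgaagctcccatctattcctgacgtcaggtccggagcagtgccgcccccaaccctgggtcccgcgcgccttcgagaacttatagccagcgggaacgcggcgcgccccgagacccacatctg
Jag1, chr2:137116645-137116770, minus strand: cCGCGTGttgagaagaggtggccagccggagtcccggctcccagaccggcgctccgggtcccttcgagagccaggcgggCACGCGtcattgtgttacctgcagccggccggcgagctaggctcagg
Notch3, chr17:32166891-32167140, minus strand: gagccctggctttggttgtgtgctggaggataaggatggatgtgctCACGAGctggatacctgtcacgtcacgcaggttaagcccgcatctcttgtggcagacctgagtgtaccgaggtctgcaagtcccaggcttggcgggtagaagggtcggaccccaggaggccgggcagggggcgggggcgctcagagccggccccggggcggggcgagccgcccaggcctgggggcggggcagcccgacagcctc
RefSeq promoters were matched for 8 of the 10 members, all but Hes1 and Hey1. In the 250 bases upstream of the RefSeq start, CACGNG was found for 4 of the 8 (Jag1 with 2 matches, Neurl1a, Notch2 and Notch3 with 1 each), against 23.5% of 32851 mouse promoter windows of that length. CACGNG itself contains CG, and the windows of the 8 members held 16 (Notch1) to 54 (Jag2) CG dinucleotides, against a median of 6 over all windows. The share of all windows is therefore not a background of like base content, and no excess is read from it. The windows of Notch1 and Jag2 lie wholly inside the GENCODE gene, so they are not upstream of it. Those of Jag1, Neurl1b and Notch2 lie inside it in part, with 126, 220 and 239 of the 250 bases outside. The RBPJ core TGGGAA, searched on both strands, was found in 0 of the 8, against 21.6% of all windows, which says only that these letters are not in these windows. The GC content of the windows was 75.2% for Neurl1b, 64.4% for Neurl1a, 57.2% for Jag1 and 68.8% for Notch3, against a median of 52.4% over all windows.

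Across the 10 members, the separation between matrices was carried by Neurl1b, Jag1 and Notch3, each higher in every laminin-rich library than in any collagen I library, and by Neurl1a, which was lower in every laminin-rich library. Thus 3 members lay wholly above (1.94% of all 10789 genes tested did), 1 lay wholly below (1.3%), and 4 in all did not overlap (3.23%). The other 6 members overlapped. The fitted log2 difference, laminin-rich minus collagen I, was above 0 for 9 of 10 members, with a median of 0.33, against a median of 0.0094 and 51.7% of genes above 0 over all genes tested. Levels are given as CPM (counts per 1000000 after TMM scaling, which corrects for differences in library composition). By the quasi-likelihood test of edgeR, Benjamini-Hochberg adjusted over all genes, 1 of 10 members, Neurl1b, had an adjusted p below 0.05, where 0.148% of all genes did, and 6 of 10 had an unadjusted p below 0.05, where 11.7% of all genes did. Because this contrast was known when the members were picked, nothing is read from these counts. With DESeq2 (1.94% of genes called) the called members were Neurl1b, Neurl1a, Jag1 and Notch3. After a length and GC trend was taken out of each library (0.964% of genes called) they were Jag1 and Neurl1a. In bulk RNA, a lower level in every cell and fewer cells that express a gene cannot be told apart.

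**Figure D1:**
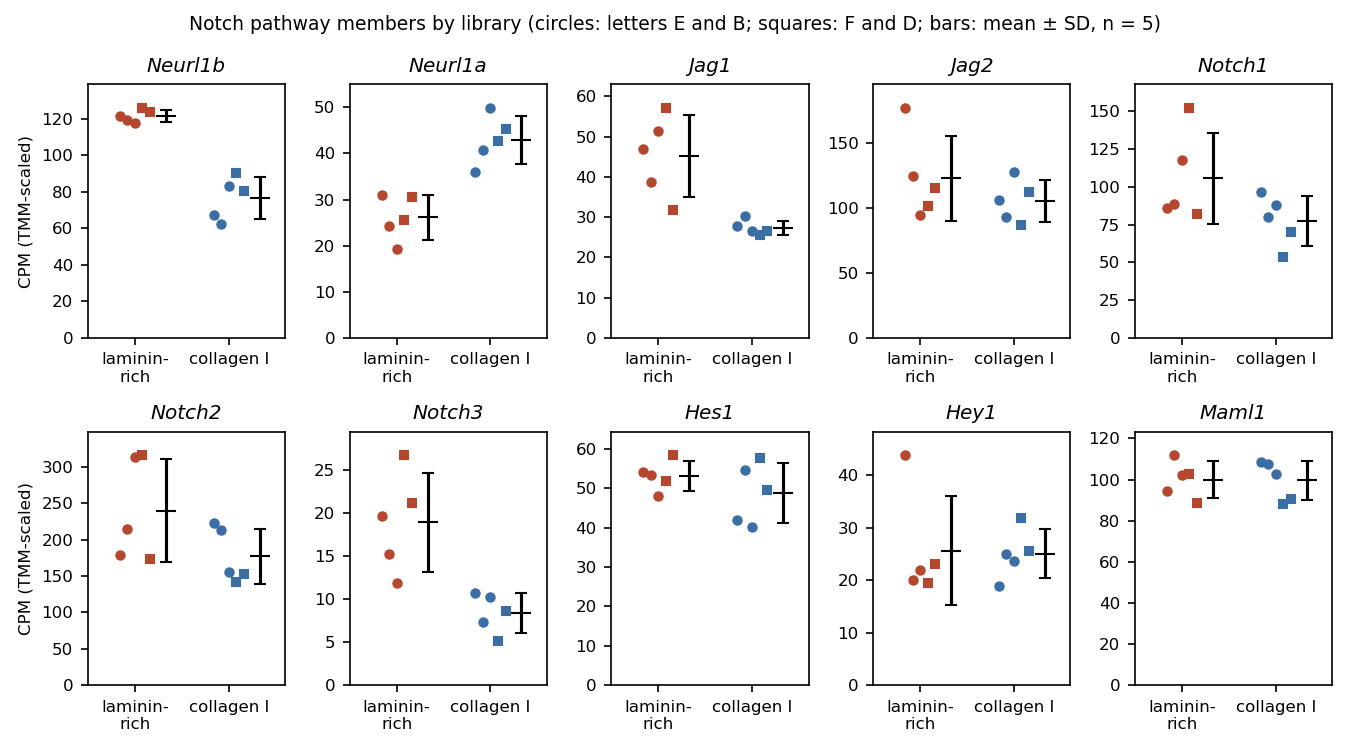
TMM-scaled CPM of the 10 members in each library, laminin-rich (red, left) and collagen I (blue, right), with the mean ± SD of 5 libraries in black and the library code letter as the symbol. Neurl1b, Jag1 and Notch3 lie higher in all 5 laminin-rich libraries, Neurl1a lies lower, and the other 6 members overlap.

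The 2 Neuralized genes differed between the matrices in opposite directions. Neurl1b, on chromosome 17 from 26414829 to 26446349 (GRCm38), stood at 121, 119, 118, 126 and 123 CPM in laminin-rich replicates 1 to 5, against 67.1, 62.3, 82.9, 90.4 and 80.7 CPM in collagen I replicates 1 to 5. The laminin-rich libraries were nearly equal, and the highest collagen I library was well below the lowest of them. The means were 122 ± 3.41 CPM in the laminin-rich matrix and 76.7 ± 11.6 CPM in collagen I (SD, n = 5 each), a fitted log2 difference of 0.67 (SE 0.11), or 1.59-fold. Neurl1a, on chromosome 19 from 47178820 to 47259441, stood at 30.9, 24.3, 19.2, 25.6 and 30.6 CPM in the laminin-rich replicates, against 36.0, 40.7, 49.97, 42.7 and 45.4 CPM in the collagen I replicates. Here the laminin-rich libraries were all low. The means were 26.1 ± 4.88 CPM in the laminin-rich matrix and 43.0 ± 5.21 CPM in collagen I (SD, n = 5 each), a log2 difference of -0.72 (SE 0.15).

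The ratio of Neurl1b to Neurl1a counts is taken within a library, so library scaling drops out of it. It was 3.93, 4.90, 6.12, 4.92 and 4.03 in the laminin-rich replicates, against 1.86, 1.53, 1.66, 2.11 and 1.78 in the collagen I replicates. The lowest laminin-rich ratio was above the highest collagen I ratio. This gap was fixed by the levels above, where neither gene overlapped and the directions were opposite, so it adds no further support. The means were 4.78 ± 0.885 in the laminin-rich matrix and 1.79 ± 0.221 in collagen I (SD, n = 5 each). A ratio of counts also reflects the lengths of the 2 genes, so it is compared between libraries and not read as a ratio of molecules. Neurl1a and Neurl1b together summed to 137 to 154 CPM in the laminin-rich matrix and 103 to 133 CPM in collagen I. Of the other Neuralized genes, Neurl4 stood at 106 and 86.8 CPM on average in the laminin-rich matrix and in collagen I, Neurl3 at 13.9 and 16.3 CPM, and Neurl2 was too low to be tested.

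**Figure D2:**
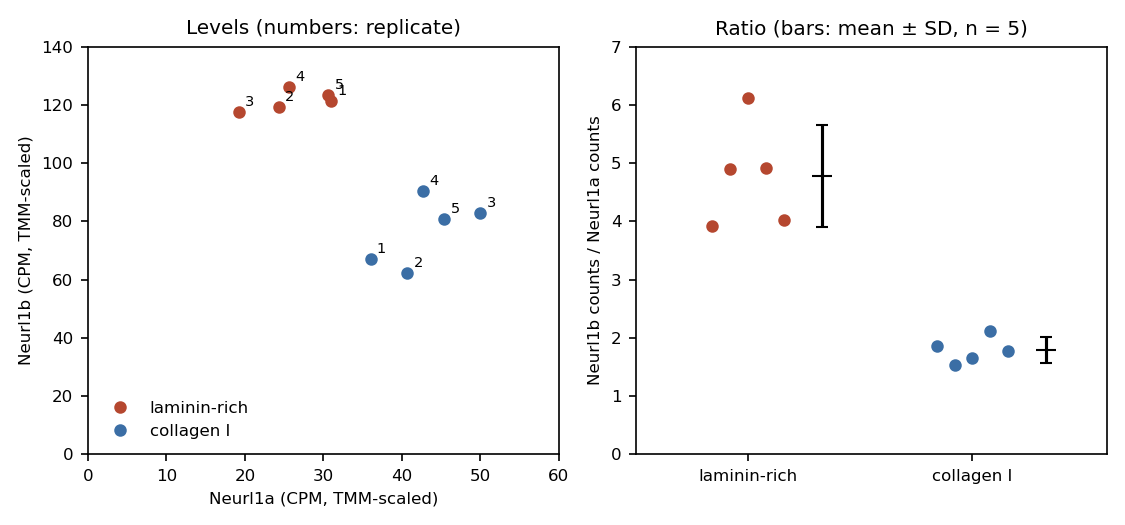
Left, TMM-scaled CPM of Neurl1b against Neurl1a per library, with replicate numbers; right, the within-library ratio of their counts with mean ± SD (n = 5), laminin-rich in red and collagen I in blue. The laminin-rich libraries have ratios from 3.93 to 6.12 and the collagen I libraries from 1.53 to 2.11.

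Whether Neurl1b was called varied with the libraries kept and with the scaling. With all libraries its adjusted p was 1.4e-05 in DESeq2, 0.0369 in limma-voom and 0.0621 in edgeR scaled by library totals only. In edgeR with TMM scaling its adjusted p was 0.0465 with all libraries and ran from 0.0294 to 0.151 when single libraries were left out. It passed without laminin-rich replicate 1 or collagen I replicate 4 and did not pass without any other library (log2 difference 0.58 to 0.73 throughout). With the length and GC trend removed, its log2 difference was 0.45 (adjusted p = 0.129 in edgeR), while that of Neurl1a was -0.85 (adjusted p = 0.00446 in edgeR).

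Of the ligands, Jag1 was higher in the laminin-rich matrix and Jag2 overlapped. Jag1, on chromosome 2 from 137081456 to 137116644, stood at 46.9, 38.7, 51.3, 57.2 and 31.8 CPM in laminin-rich replicates 1 to 5, against 27.7, 30.2, 26.5, 25.6 and 26.6 CPM in collagen I replicates 1 to 5. The collagen I libraries lay close together while the laminin-rich ones spread widely, and laminin-rich replicate 5 lay just above the highest collagen I library. The means were 45.2 ± 10.1 CPM in the laminin-rich matrix and 27.3 ± 1.75 CPM in collagen I (SD, n = 5 each), a log2 difference of 0.73 (SE 0.15). Jag2, on chromosome 12 from 112907819 to 112929776, stood at 177, 125, 94.7, 101 and 115 CPM in the laminin-rich replicates, against 106, 92.7, 128, 87.1 and 112 CPM in the collagen I replicates. Laminin-rich replicate 1 was the highest and the groups overlapped, with a log2 difference of 0.22 and an interval of -0.11 to 0.55 (about 2 SE to each side). Without laminin-rich replicate 1 the difference was 0.047, and after removal of the trend on length and GC it was 0.037. The Jag1 to Jag2 count ratio was 0.264 to 0.564 in the laminin-rich matrix and 0.207 to 0.326 in collagen I, an overlap that comes from laminin-rich replicates 1, 2 and 5.

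Among the 3 member receptors, Notch3 had the widest difference between the matrices and the lowest counts. Notch3, on chromosome 17 from 32120820 to 32166852, had 141, 84, 74, 179 and 92 counts in laminin-rich replicates 1 to 5, against 76, 41, 84, 25 and 54 counts in collagen I replicates 1 to 5. Scaled, it stood at 19.7, 15.3, 11.8, 26.8 and 21.2 CPM in the laminin-rich replicates, against 10.7, 7.32, 10.2, 5.09 and 8.66 CPM in the collagen I replicates. The groups did not overlap after scaling, although laminin-rich replicate 3 and collagen I replicate 1 differed by little. The means were 19.0 ± 5.74 CPM in the laminin-rich matrix and 8.40 ± 2.29 CPM in collagen I (SD, n = 5 each), a log2 difference of 1.16 (SE 0.24), or 2.23-fold. Notch3 is also known as a receptor of mural cells, the muscle-type cells around vessels. The summed level of 8 mural markers was 158 to 199.9 CPM in the laminin-rich matrix and 126 to 143 CPM in collagen I, which did not overlap either. Of these markers Cspg4, a proteoglycan, made up most of the sum (151 to 192 CPM in the laminin-rich matrix and 123 to 139.8 CPM in collagen I), while Rgs5 and Kcnj8 had 0 counts in all libraries. Pdgfrb, a growth factor receptor of mural cells and fibroblasts, stood at 1.26 to 6.08 CPM in the laminin-rich matrix and 0.424 to 0.802 CPM in collagen I, which did not overlap, and Des at 1.12 to 2.72 and 1.07 to 4.86 CPM in the same order, which did. The remaining markers Acta2, Myh11 and Tagln, genes of contractile mural cells, had 11, 17 and 8 counts over all 10. At these low counts they averaged 0.0461, 0.295 and 0.120 CPM in the laminin-rich matrix and 0.306, 0.265 and 0.190 CPM in collagen I. Acta2, Tagln and Des (1.91 and 3.12 CPM on average) were thus lower on average in the laminin-rich matrix, unlike Cspg4 and Pdgfrb. The part of these markers in the Notch3 difference was not tested.

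Notch1 and Notch2 were higher on average in the laminin-rich matrix, with overlapping groups. Notch1, on chromosome 2 from 26457903 to 26516663, stood at 86.1, 88.8, 118, 153 and 82.3 CPM in the laminin-rich replicates, against 96.4, 80.2, 87.9, 53.5 and 69.9 CPM in the collagen I replicates. Notch2, on chromosome 3 from 98013527 to 98150361, stood at 179.7, 215, 314, 317 and 174 CPM in the laminin-rich replicates, against 223, 214, 156, 141 and 152 CPM in the collagen I replicates. For both receptors, laminin-rich replicates 3 and 4 were the highest of all libraries, collagen I replicates 4 and 5 were the lowest for Notch1, and collagen I replicates 3, 4 and 5 the lowest for Notch2. The log2 differences were 0.44 (SE 0.20) for each, and once a trend on length and GC was taken out they were 0.12 for Notch1 and 0.13 for Notch2. Without laminin-rich replicate 4 that of Notch1 was 0.26. Notch2 supplied 65.4% to 74.8% of the summed receptor level per kilobase of exon in the laminin-rich matrix and 65.8% to 75.0% in collagen I. The share of Notch3 was 3.76% to 10.6% in the laminin-rich matrix and 3.43% to 5.75% in collagen I, so the shares overlapped, and Notch4 stayed at or below 0.979% in every library.

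The target genes and Maml1 overlapped between the matrices. Hes1, a transcriptional repressor and the best known Notch target, on chromosome 16 from 30064384 to 30067796, stood at 54.2, 53.4, 48.1, 51.9 and 58.5 CPM in the laminin-rich replicates, against 41.9, 54.6, 40.2, 57.8 and 49.6 CPM in the collagen I replicates. The laminin-rich libraries lay within the collagen I range except replicate 5, just above it, and the log2 difference was 0.13 with an interval of -0.11 to 0.36. Hey1, a related repressor on chromosome 3 from 8663359 to 8667256, stood at 43.9, 19.98, 21.9, 19.5 and 23.0 CPM in the laminin-rich replicates, against 18.9, 24.99, 23.6, 32.0 and 25.7 CPM in the collagen I replicates. Laminin-rich replicate 1 was far above the other 4, and without it the log2 difference was -0.24 in place of 0.05. Maml1, a Mastermind coactivator on chromosome 11 from 50255634 to 50292311, stood at 88.7 to 112 CPM in the laminin-rich matrix and 88.3 to 108 CPM in collagen I, a log2 difference of 0.01 with an interval of -0.19 to 0.21, whose sign changed under 13 of 22 alternatives.

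**Figure D3:**
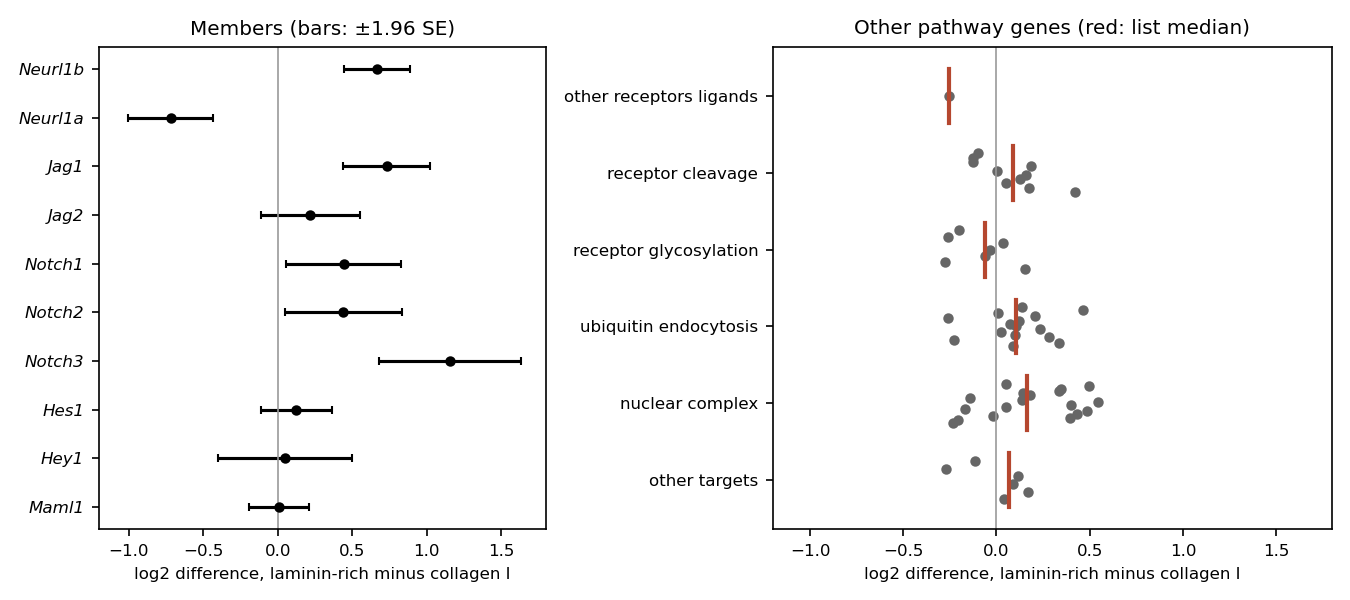
Log2 differences, laminin-rich minus collagen I, for the 10 members with bars of about 2 SE to each side (left) and for the 57 other pathway genes tested, by list, with list medians in red (right). Notch3 (1.16) and Neurl1a (-0.72) mark the ends among the members, and the other genes lie between them.

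Per length, which allows genes to be compared, the members spanned about an order of magnitude. CPM per kilobase of merged exons was 26.1 ± 1.85 for Hes1, 22.3 ± 6.56 for Notch2, 19.2 ± 0.538 for Neurl1b, 18.1 ± 1.61 for Maml1 and 17.6 ± 4.70 for Jag2 in the laminin-rich matrix (SD, n = 5). These 5 overlapped with their neighbours in that order. They were set off from Hey1 (7.86 ± 3.16), Jag1 (7.75 ± 1.73) and Notch1 (7.42 ± 2.10), which overlapped among themselves and were above Neurl1a (3.59 ± 0.669) and Notch3 (2.35 ± 0.7102) in every laminin-rich library. In collagen I the order by mean was Hes1 (23.97 ± 3.77), Maml1, Notch2, Jag2, Neurl1b (12.1 ± 1.84), Hey1, Neurl1a (5.90 ± 0.715), Notch1, Jag1 (4.69 ± 0.2998) and Notch3 (1.04 ± 0.283). There Hes1, Neurl1b and Jag1 were each clear of the next gene in that order, and the other neighbours overlapped. Notch3 had the lowest mean in both matrices, with a range that overlapped that of Neurl1a in the laminin-rich matrix. The order depends on which length is used, since 9 of the 20 levels moved by more than their SD with the longest transcript (Neurl1a to 6.29 in the laminin-rich matrix and 10.3 in collagen I).

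**Figure D4:**
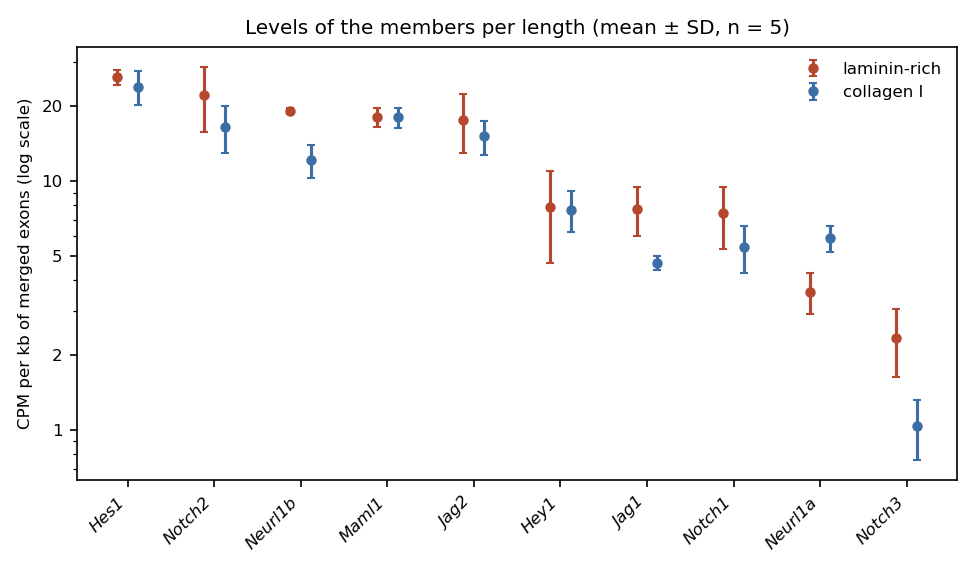
CPM per kilobase of merged exons on a log scale, mean ± SD of 5 libraries, members ordered by their level in the laminin-rich matrix (red) with collagen I in blue. Hes1 is highest and Notch3 lowest in both matrices, and Neurl1a is the member whose laminin-rich level lies below that of collagen I.

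Over both matrices pooled, with group means removed, several members followed how strongly a library favoured long transcripts. The slope of log2 level on log2 transcript length was -0.012, 0.090, 0.163, 0.161 and -0.115 log2 units per doubling of length in laminin-rich replicates 1 to 5, against 0.183, 0.154, -0.063, -0.371 and -0.190 in collagen I replicates 1 to 5. With group means removed, the Pearson correlation with this slope over 10 libraries was 0.83 for Notch2 and 0.79 for Notch1, whose longest transcripts measure 10500 and 9488 nt, and 0.87 for Maml1 (Spearman rho 0.83, 0.77 and 0.79). It was -0.83 for Neurl1b (rho -0.79) although its transcript measures 6195 nt, -0.56 for Neurl1a, 0.54 for Jag1 and 0.30 for Notch3. In the laminin-rich matrix Neurl1b stayed at 118 to 126 CPM whatever the slope, so its value rests mostly on collagen I. These values are descriptions, and all points share the library from which both measures come. Once a trend on length and GC was taken out, the log2 differences between the matrices were 0.45 for Neurl1b, -0.85 for Neurl1a, 0.60 for Jag1 and 0.87 for Notch3.

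**Figure D5:**
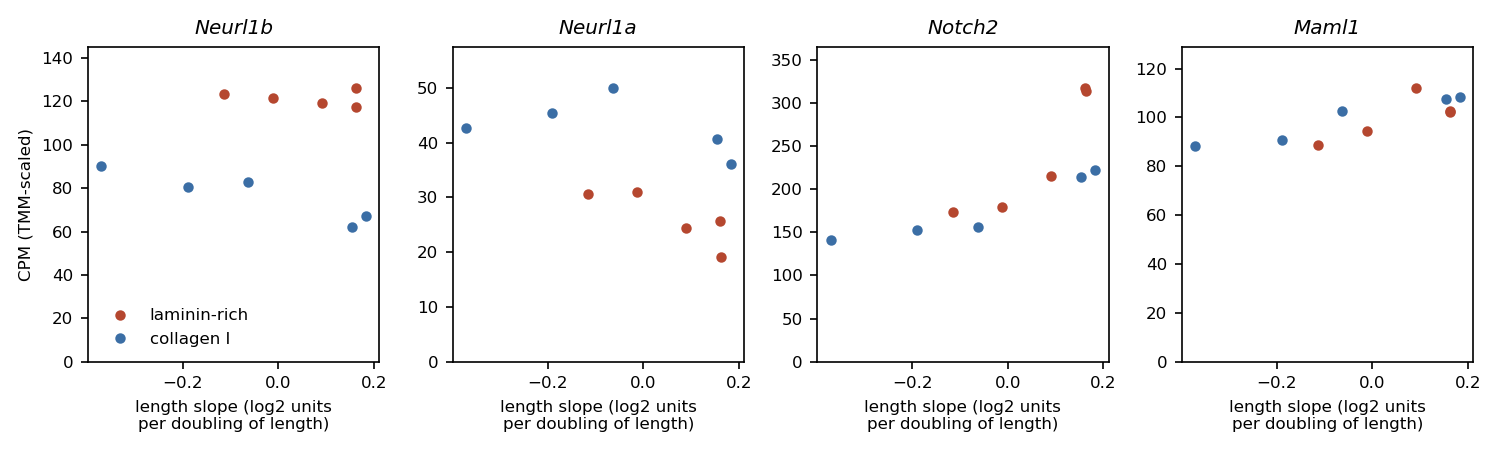
TMM-scaled CPM of Neurl1b, Neurl1a, Notch2 and Maml1 against the slope of log2 level on log2 transcript length, 1 point per library, laminin-rich in red and collagen I in blue. Notch2 and Maml1 climb with the slope in both matrices, and Neurl1b falls with it in collagen I, from 90.4 CPM at -0.371 to 67.1 CPM at 0.183.

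The library codes carry a letter whose meaning is not stated, E (replicates 1 to 3) and F (4 and 5) in the laminin-rich matrix and B (1 to 3) and D (4 and 5) in collagen I. No letter is found in both matrices, which means that letter and matrix cannot be told apart. Neurl1b ran from 118 to 121 CPM in E, 123 to 126 in F, 62.3 to 82.9 in B and 80.7 to 90.4 in D, and Neurl1a from 19.2 to 30.9 in E, 25.6 to 30.6 in F, 36.0 to 49.97 in B and 42.7 to 45.4 in D. For either gene, both laminin-rich letters were clear of both collagen I letters, which had to follow because the matrices did not overlap. Without the 3 letter B libraries, Neurl1b, Neurl1a, Jag1 and Notch3 were called, in a fit that called 18.9% of all genes. Notch1, Notch2 and Maml1 were lower in both D libraries than in any B library, and Hey1 was higher.

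Likeness between members was measured as the Pearson correlation of log2 CPM over 10 libraries with group means removed. Of 45 pairs, 21 were above 0. The highest was Notch1 with Notch2 (0.84), then Notch2 with Jag1 (0.74) and Notch1 with Jag1 (0.69), and the lowest was Notch2 with Neurl1a (-0.78). Among 9897 genes with a mean of at least 5 CPM, the most alike to Jag1 were Map3k20, Maoa and Pkia (r 0.97, 0.96 and 0.92), to Notch3 Ttc5, Nrbf2 and Rcn1 (0.96, 0.93 and 0.92) and to Neurl1b Pcolce, Nat9 and Xrcc3 (0.99, 0.98 and 0.98). These are the ends of a long ranking over 10 libraries, in which all genes of a library share its depth and length slope, and are given as a description.

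Of 72 other genes of the pathway, 57 were tested and 0 passed in edgeR in either direction, with 5 at an unadjusted p under 0.05, all higher, and adjusted p from 0.133 to 0.989. Over all genes the shares were 0.148% and 11.7%. DESeq2 called 1, Furin, and limma-voom 0. The median log2 difference was 0.090, with 39 of 57 above 0, against 51.7% of all genes. In the receptor cleavage list, 0 of 10 passed. Furin, which cleaves Notch precursors on their way to the surface, stood at 196 CPM on average in the laminin-rich matrix and 146 CPM in collagen I, a log2 difference of 0.42 (SE 0.10), and is named after its values were seen. Adam10 gave 0.17 (SE 0.20), and the gamma-secretase subunit Ncstn gave 0.00 (SE 0.09). The glycosylation list, which holds the Fringe enzymes that tune ligand choice, had 0 of 7 passing and 5 of 7 below 0. The ubiquitin and endocytosis list had 0 of 15 passing and 13 of 15 above 0. There Mib1, the main ligase for Notch ligands in mammals, gave 0.09 (SE 0.23), and Dtx4, a Deltex ligase, gave 0.46 (SE 0.22).

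In the nuclear complex list, 0 of 18 passed, with 13 above 0 (51.7% of all genes were) and a median of 0.16. Its widest differences were those of Spen, a corepressor that binds RBPJ, at 114 ± 28.3 CPM in the laminin-rich matrix and 78.1 ± 22.9 CPM in collagen I (SD, n = 5 each), of the Groucho-type corepressor Tle3 (107 ± 20.5 and 75.7 ± 14.4 CPM in the same order) and of the acetyltransferase Crebbp (97.0 ± 27.0 and 69.2 ± 28.3 CPM). Tle3 was the only gene of this list whose groups did not overlap. Of all 57 other pathway genes tested, 2 lay wholly above, Tle3 and Furin, and 0 wholly below, where 1.94% and 1.3% of all genes did. Rbpj, the DNA-binding partner of the cleaved receptor, gave -0.24 (SE 0.15). Of the other targets, 0 of 6 tested passed, and Nrarp, a feedback inhibitor induced by Notch, gave 0.09 (SE 0.12). Hes5, Heyl, Dlk1 and Rbpjl had 0 counts in all libraries, and the Delta-like ligands Dll1, Dll3 and Dll4 had 83, 11 and 4 counts over all 10, too few to be tested. Without the letter B libraries, 15 of 59 pathway genes were called, beside 18.9% of all genes.

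Library totals ran from 4424725 to 8129979 counts, and a gene at 0 counts could have had up to 3 counts, or 0.369 to 0.678 CPM, by counting error alone. All 12 cholangiocyte markers had a mean of at least 1 CPM, and they summed to 4192 to 5816 CPM in the laminin-rich matrix and 4074 to 6089 CPM in collagen I, led by Krt8 and Krt19. A mean of at least 1 CPM was also reached by 5 of 8 hepatocyte, 4 of 8 fibroblast, 1 of 8 endothelial and 1 of 8 leukocyte markers. The markers at 0 named next therefore do not stand for their lists. Hepatocyte markers summed to 136 to 193 CPM and 89.1 to 137 CPM in the same order, with Cyp2e1 at 0. They were led by Hnf4a (109 and 80.0 CPM on average) and Alb (35.5 and 18.8 CPM), while Apoa1 averaged 1.24 and 2.31 CPM. Fibroblast markers summed to 19.1 to 51.1 and 22.3 to 28.2 CPM with Thy1 at 0, a sum of markers that moved in different directions. Dcn stood at 2.30 to 5.25 CPM in the laminin-rich matrix and 6.35 to 9.64 CPM in collagen I, which did not overlap. Pdgfra averaged 9.30 and 4.01 CPM in the same order, and Col1a1 14.2 and 11.5 CPM, both with overlapping groups. Endothelial markers summed to 10.9 to 18.2 and 10.6 to 16.7 CPM with Cdh5, Kdr, Emcn and Erg at 0. Most of that sum was Egfl7 (13.7 and 12.6 CPM on average). Leukocyte markers summed to 3.84 to 6.89 and 4.38 to 8.55 CPM. The part of these lists in the members' differences was not tested either. Exons of Notch1, Notch3 and Maml1 overlap noncoding genes on the opposite strand that have no row of their own in the table, and Notch2 and Neurl1a overlap such genes on their own strand. Reads of the opposite-strand genes could not be separated if strand was not used in counting. This leaves the counts of Notch1, Notch3 and Maml1 uncertain by that amount. Strand does not separate reads of the own-strand genes in shared exons, so the counts of Notch2 and Neurl1a are uncertain as well.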

How the data were processed

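Poly(A) RNA of 10 NMC libraries was measured. Stranded mRNA libraries started from 30 ng, per the labels' protocols. The authors deposited raw counts by gene symbol. Build GRCm38 (mm10) and DESeq2 are named in the submitters' processing notes. The series text calls the replicates biological without naming separate cultures, and p-values then cover only the spread among these libraries, which may be technical. Aligner, counter, strand setting and annotation: not given in the sources used here.

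Genes passing filterByExpr (10789) were fitted with edgeR 4.0.16 (TMM, two-sided quasi-likelihood test with matrix as the single term, Benjamini-Hochberg over all genes, threshold 0.05) in R 4.3.3, with DESeq2 1.42.0 and limma 3.58.1 as alternatives. The SE is the log2 difference divided by the square root of F. Positions and lengths come from GENCODE M21 (GRCm38), matched for 18338 of 18407 symbols. The length and GC correction was a spline trend per library (5 degrees of freedom each), entered as an offset.

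Members and pathway lists were chosen with earlier results of these data known. Named were all 10 members and the 4 other pathway genes with the widest differences at a mean of 5 CPM or more. The 3 genes most like Jag1, Notch3 and Neurl1b were named as well. Of the markers at 0 or leading their sum, only some are named. Other pathway genes, the mural markers Pdgfrb, Acta2, Myh11 and Tagln, and the markers Dcn, Apoa1, Krt7 and Cftr were named after their values were seen. Values of 2 listed genes are not reported here. Same-numbered replicates gave correlations of deviations from -0.33 to 0.48, so the numbers were not taken as pairs.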

Additional observations from a re-analysis of the deposited data

Results flagged for a closer look

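Of 50 groups of 5 libraries examined (members, ratios and sums, and marker sums), 3 held a library set well apart. By chance about 5%, or 2.5 groups, would. Hey1 stood at 43.9 CPM in laminin-rich replicate 1, against 23.0 CPM in the next laminin-rich library. The summed level of Jag1 and Jag2 was 224 CPM in the same library, against 164 CPM in the next. The fibroblast marker sum was 51.1 CPM in laminin-rich replicate 4, against 24.8 CPM in the next.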

How the results depend on the processing

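Of 10789 genes, 16 were called with all libraries in edgeR. The count was 209 with DESeq2, 29 with no filter on low counts, 104 with the length and GC offset, and 1, 5, 2083 and 5 without the libraries of letter E, F, B and D. It ran from 0 to 64 when single libraries were left out, with 0 without laminin-rich replicate 2, collagen I replicate 3 or collagen I replicate 5 (977, 1167 and 939 at an unadjusted p under 0.05) and 64 without laminin-rich replicate 1. Called members were 1 of 10, and 4 with DESeq2, 2 with the offset, 4 without letter B, and 0 with library totals only, without letter E or without letter F, and between 0 and 2 on leaving out single libraries. Other pathway genes called were 0, and 1 with DESeq2 and 15 without letter B. With the replicate block, 0 genes and 0 members were called (1049 genes at an unadjusted p under 0.05), and Neurl1b gave 0.68 (adjusted p = 0.214, edgeR). The replicate numbers did not pair the libraries, since 2 of 5 same-numbered pairs correlated above 0.1 and 1 of 10 libraries correlated best with its own number.

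Over 22 alternatives, Notch1, Notch2, Notch3, Jag1, Jag2, Neurl1a and Neurl1b kept their sign. For the members whose groups do not overlap this was nearly fixed beforehand. Neurl1b passed in 9 of 22, Neurl1a in 4, Jag1 in 3 and Notch3 in 2. Neurl1b did not pass with library totals only (adjusted p = 0.0621, edgeR). Jag2 was 0.0152 without letter E. Notch1 and Notch2 were 0.75 and 0.68 without letter B, and 0.26 and 0.28 without letter D. Hes1 was 0.25 with the offset and turned to -0.0395 without letter B. Hey1 turned to -0.0141 with the replicate block, -0.26 without letter E and -0.18 without letter B, and ran from -0.24 to 0.15 when single libraries were left out. Maml1 turned to -0.00513 with DESeq2, -0.00482 with DESeq2-type size factors, -0.00688 with library totals only, -0.0170 with no filter, -0.0118 with at least 1 CPM in 5 libraries, -0.17 with the offset, -0.0800 without letter E and -0.0874 without letter D, and ran from -0.0555 to 0.0456 when single libraries were left out. The cause of these changes was not tested. Notch3 has the fewest counts of the members, 25 at the lowest, which limits its precision.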
